A study of Picea abies with 24 samples.

Results

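The A78:5 line of Norway spruce (Picea abies) was set against the control line G88:9 on 4 two-colour cDNA arrays, out of 24 arrays in the series. They were chosen by their titles, which name both lines, and no measured value entered the choice. The series is titled for the down-regulation of a CCR gene, and its labels call A78:5 an asCCR line and G88:9 a transformed control line. The other lines were the asCCR lines A78:3 and A78:4, the transformed control line G88:5 and the untransformed line 95:88:22. Material of each line was frozen on day 14 after subculture, as 2 replicates from 3 Petri dishes, and each asCCR extract met a control extract on the arrays. All lines were embryogenic cultures, and the titles call the material callus. A78:5 and G88:9 are 1 line each, so what belongs to the asCCR construct and what belongs to these particular lines cannot be told apart here. The labels do not say which construct G88:9 carries.

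CCR, cinnamoyl-CoA reductase, converts hydroxycinnamoyl-CoA esters to aldehydes and so commits them to monolignols, the building blocks of lignin. Its substrates also feed other phenylpropanoid products, among them flavonoids and esters of the cell wall. Embryogenic cultures of conifers consist of proliferating early somatic embryos. As a check of the labels, CCR could not be looked up, because the files used here do not pair the spots with genes. Features are therefore labelled by F and their 2 spot numbers, and nothing is said of what they encode.

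Each replicate of the pairing was hybridised once with A78:5 in Cy5 and once with A78:5 in Cy3. Values are log2 ratios of A78:5 over G88:9, so a value above 0 means more signal in A78:5. Each array held 5376 spots, 2 for each feature. The ratios of the duplicate spots had a Pearson r across features of 0.738 with A78:5 in Cy5 and 0.223 with A78:5 in Cy3 in replicate 1, and of 0.816 and 0.568 in replicate 2. The array of replicate 1 with A78:5 in Cy3 was thus the least precise of the 4, and it lay just below the range of the other 20 arrays, 0.236 to 0.867 with a median of 0.624. The main counts, the tests between pairings and the named features are also given without it, in which case replicate 1 is its other array alone and its dye effect does not cancel. Median intensities were 822 to 1446 in Cy5 and 676 to 2344 in Cy3. The files mark 2 to 13 spots of each array to be ignored.

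The dye orientations of a replicate agreed weakly. Across features the 2 orientations had an r of 0.320 in replicate 1 and 0.271 in replicate 2. They had the same sign in 54.1% and 58.9% of features. The deviation of an orientation from the mean of the 2, which holds the dye effect and the array noise, had an SD over features of 0.19 in replicate 1 and 0.18 in replicate 2, against 0.25 and 0.24 for the mean of the orientations. The 2 arrays with A78:5 in Cy5 had an r of 0.323 across replicates and those with A78:5 in Cy3 an r of 0.130. The 2 pairs that cross both dye and replicate had 0.167 and 0.0424. The r of these deviations between replicates was 0.199. These correlations are across features, which are not independent replicates, and arrays with the same orientation share any dye effect of a feature.

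The first question was whether transcript levels in A78:5 differed from those in G88:9. No feature passed the test: limma on the 2 replicate values called 0 features (0%), with a smallest adjusted p of 0.383. Below an unadjusted limma p of 0.05 were 264 features (9.82%), of which 86 were higher in A78:5 (3.2%) and 178 lower (6.62%), against 134.4 that evenly spread p-values would yield. In the fit with a shared spread described below, the surplus of lower features was smaller, at 308 higher and 344 lower. In that fit the surplus turned round without replicate 1 and stayed without replicate 2. The mean log2 ratio ran from -1.05 to 0.83 over features, with a median of 0.01, with the 1st percentile at -0.59 and the 99th at 0.40. It was beyond 0.5 in 10 features in the higher and 52 in the lower direction, and beyond 1 in 1 feature, which was lower. The 95% confidence interval reached 0.28 to either side on the log2 scale in the median feature. In 2656 features (98.8%) it excluded a change of over 2-fold in either direction. No adjustment for the many features was made to these intervals. Without the array of replicate 1 with A78:5 in Cy3, limma called 0 features and 217 were at an unadjusted p under 0.05.

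The count of calls depended on how the spread was estimated. When the spread between replicates was shared with the pairings A78:3 over G88:5 and A78:4 over 95:88:22, limma called 21 features, 2 higher (0.0744%) and 19 lower (0.707%), with adjusted p between 0.0449 and 0.0489 and sizes of 0.42 to 0.83. The replicates of A78:5 over G88:9 lay further apart than those of the pairings whose spread they borrowed. The median replicate SD over features was 0.12 in A78:5 over G88:9, against 0.07 in A78:3 over G88:5 and 0.05 in A78:4 over 95:88:22. With 1 weight per pairing, which takes that difference in, 0 features were called. Without the array of replicate 1 with A78:5 in Cy3 the shared spread also gave 0 calls, with a smallest adjusted p of 0.0541. With normexp background correction 46 were called and with 1 loess curve per array 71. In both of those fits the prior degrees of freedom were infinite, which gives every feature the same spread.

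The second question was how far the replicates gave the same picture. Pearson's r between replicate 1 and replicate 2 was 0.278 and Spearman's rho 0.288 across features, r was 0.315 without the array of replicate 1 with A78:5 in Cy3, and 59.4% of features had the same sign in both. The SD over features was 0.20 for the mean of the replicates and 0.15 for the deviation of a replicate from that mean. Most features were close to 0: 1583 (58.9%) lay within 0.25 of it in both replicates. Beyond 0.5, replicate 1 had 37 features higher and 114 lower and replicate 2 had 60 higher and 70 lower. Only 1 feature was higher beyond 0.5 in both (0.0372%) and 4 were lower in both (0.149%). The array numbers in the titles and the dates in the file headers are separate for replicate 1 and replicate 2, so the extracts and anything else that differed between these sets of arrays cannot be told apart. For these replicates, the per-replicate values are also the values within each set. By the array numbers in the titles, the replicates of other pairings are not always separated in this way.

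**Figure D1:**
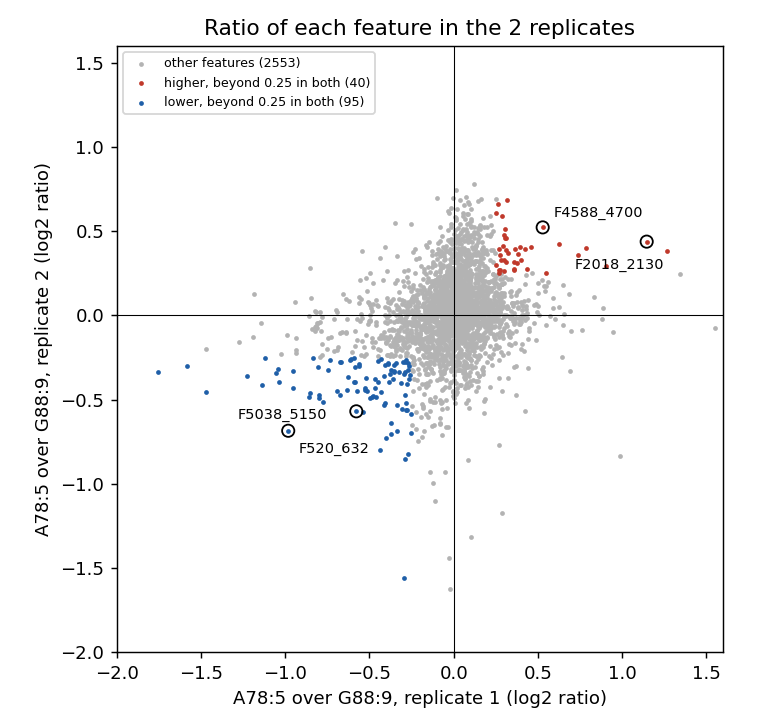
Log2 ratio of A78:5 over G88:9 for each feature, replicate 1 on the horizontal and replicate 2 on the vertical axis, with the named features marked. Many features far from 0 in one replicate lie near 0 in the other, and the Pearson r is 0.278.

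At the lower limit of 0.25 in both replicates, 40 features were higher in A78:5 (1.49%) and 95 were lower (3.53%), while 24 went opposite ways. The lower features outnumbered the higher ones in this count over both replicates, but not in each replicate alone. Beyond 0.25, replicate 1 had 231 higher and 347 lower, and replicate 2 had 368 higher and 318 lower. The surplus of lower features also shrank to 73 higher and 78 lower on the arrays with A78:5 in Cy3 alone, against 100 and 174 on those with A78:5 in Cy5 alone. Without the array of replicate 1 with A78:5 in Cy3 it was 89 and 124, and with 1 loess curve per array 78 and 106. Over single features, all 4 arrays had the same sign in 587 (21.8%), 295 of them higher in A78:5 (11%) and 292 lower (10.9%), and so showed no surplus in either direction. The median mean ratio was 0.38 in the 40 higher features and -0.47 in the 95 lower ones.

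Signal strength went with these counts. Features were split into 4 bins of 672 by mean log2 intensity over the 4 arrays. The r between replicates was 0.0939 in the dimmest bin, then 0.270, 0.296 and 0.335 in the brightest. The features higher beyond 0.25 in both replicates numbered 2, 14, 21 and 3 from dimmest to brightest. Those that were lower numbered 0, 14, 32 and 49. In the brightest bin lower features therefore outnumbered higher ones by 49 to 3, and the same bin had 26 lower and 9 higher on the arrays with A78:5 in Cy3 alone. With 1 loess curve per array the counts there were 49 lower and 9 higher. The median log2 intensity was 10.3 in the higher features and 11.2 in the lower ones, against 10.2 in all features. The part of intensity in the surplus was not tested.

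**Figure D2:**
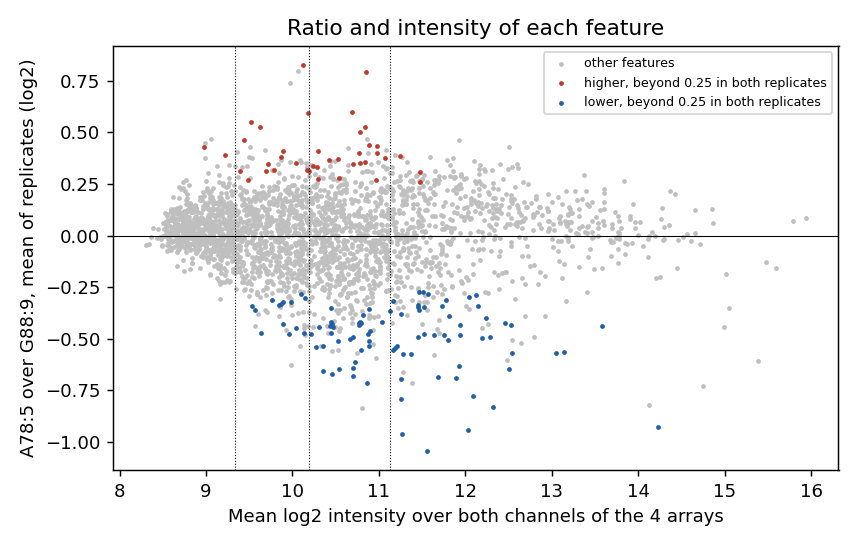
Mean log2 ratio of A78:5 over G88:9 of each feature on the vertical axis against its mean log2 intensity on the horizontal axis, with dotted lines between the 4 bins of 672 features. Features lower beyond 0.25 in both replicates (blue) number 49 to the right of the last line, against 3 higher ones (red).

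The agreement was spread over the array. Within the 24 pairs of print blocks the r between replicates was positive in 24 of 24, from 0.103 to 0.434 with a median of 0.289. A block pair held 0 to 7 of the lower features and 0 to 6 of the higher ones.

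Features chosen in one replicate were then read in the other, which had no part in choosing them. The direction carried over more often than in all features, and the size mostly did not. Of 114 features lower beyond 0.5 in replicate 1, 92 (80.7%) were below 0 in replicate 2, against 47.0% of all features. Their median was -0.70 in replicate 1 and -0.18 in replicate 2. Of 37 features higher beyond 0.5 in replicate 1, 25 (67.6%) were above 0 in replicate 2, against 53.0% of all features, with medians of 0.65 and 0.10. In the other order, 58 of 70 lower features (82.9%) and 49 of 60 higher ones (81.7%) kept their sign in replicate 1, against 47.3% and 52.7% of all features. Their medians in replicate 1 were -0.14 and 0.08. With the arrays that have A78:5 in Cy3 alone the share with the same sign was lower. It was 60.1% for features chosen in replicate 1 and 58.1% for those chosen in replicate 2, both directions together, against 77.5% and 82.3% with both orientations. Of all features, 53.9% had the same sign on those arrays and 59.4% with both orientations. The shares of chosen features were 71.9% and 83.1% without the array of replicate 1 with A78:5 in Cy3. Lower features chosen in replicate 1 then had 74.5% and higher ones 62.7%, against 47.0% and 53.0% of all features. For those chosen in replicate 2 it was 80% and 86.7%, against 46.5% and 53.5%.

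**Figure D3:**
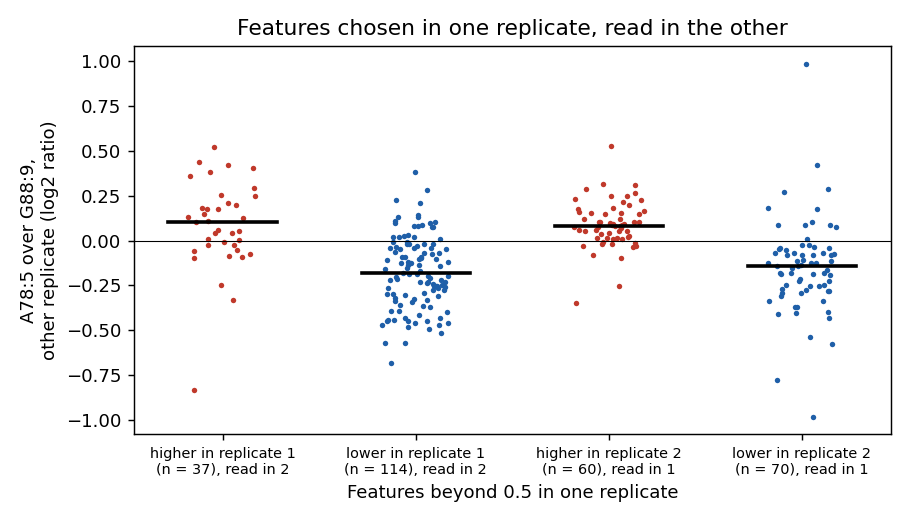
Log2 ratio of A78:5 over G88:9 in the replicate that did not choose the features, for features beyond 0.5 in the other replicate. Points are features and bars are medians. All 4 groups keep the sign of their choice in the median, at -0.18 and 0.10 in replicate 2 and -0.14 and 0.08 in replicate 1.

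The features with the largest replicated sizes and the same sign on all 4 arrays are given as values, since none passed the test and size chose them. In each the limma adjusted p was 0.383. F520_632 was the feature with the smallest unadjusted p of all, 0.000366, and one of the brighter ones, brighter than 90.5% of features. It had log2 ratios of -1.31 with A78:5 in Cy5 and -0.65 with A78:5 in Cy3 in replicate 1, and of -1.08 and -0.29 in replicate 2. All 4 arrays were below 0, though 1 of its 8 spots was at 0.06, and the arrays with A78:5 in Cy3 were nearer to 0 in both replicates. Its mean was -0.83 (SE 0.12, 95% interval -1.13 to -0.53), or 1.78-fold lower in A78:5, from replicate values of -0.98 and -0.68. It was -0.9997 without the array of replicate 1 with A78:5 in Cy3.

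F5038_5150 had -0.81 and -0.35 in replicate 1 and -0.57 and -0.56 in replicate 2, given with A78:5 in Cy5 first. Its replicates lay closest together of the 2 lower features, at -0.58 and -0.57. The mean was -0.57 (SE 0.11, 95% interval -0.84 to -0.31), or 1.49-fold lower in A78:5, and -0.69 without the array of replicate 1 with A78:5 in Cy3. A further 2 features, chosen after their values were seen, were lower beyond 0.5 in both replicates. One had -0.55, -0.52, -0.86 and -0.28 on the 4 arrays and the other -1.13, -0.42, -0.91 and -0.12, so each was below 0 on all of them.

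F2018_2130 had the larger size of the 2 higher features, with most of it in replicate 1. Its values were 1.09 with A78:5 in Cy5 and 1.20 with A78:5 in Cy3 in replicate 1, and 0.24 and 0.63 in replicate 2. The replicate values were 1.15 and 0.44 and the mean was 0.79 (SE 0.18, 95% interval 0.37 to 1.22), or 1.73-fold higher in A78:5, and 0.76 without the array of replicate 1 with A78:5 in Cy3. F4588_4700 had 0.87 and 0.19 in replicate 1 and 0.55 and 0.50 in replicate 2, with A78:5 in Cy5 first. It was the only feature higher beyond 0.5 in both replicates, at 0.53 and 0.52, with a mean of 0.53 (SE 0.11, 95% interval 0.26 to 0.79), or 1.44-fold higher in A78:5, and 0.70 without the array of replicate 1 with A78:5 in Cy3. It was among the dimmer ones, brighter than 33.7% of features.

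**Figure D4:**
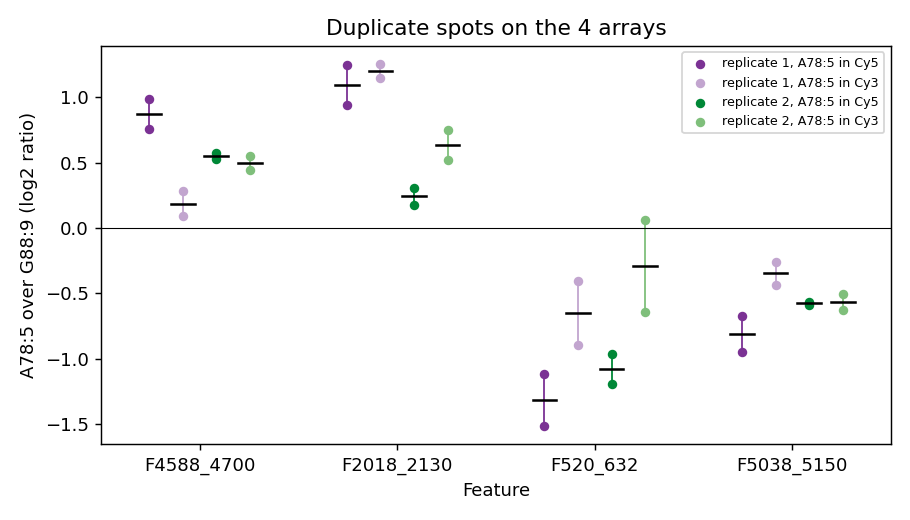
Log2 ratio of A78:5 over G88:9 at the duplicate spots (points) of the 4 named features on each of the 4 arrays, with the mean of the 2 spots as a black bar. Every bar lies above 0 for F4588_4700 and F2018_2130 and below 0 for F520_632 and F5038_5150, with 1 spot of F520_632 at 0.06.

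In 1 feature, also chosen after its values were seen, the replicates went opposite ways on all arrays. It was higher in A78:5 on both arrays of replicate 1, at 1.13 and 0.84, and lower on both of replicate 2, at -0.81 and -0.86. It was the only feature beyond 0.5 in opposite ways, and in it both orientations of each replicate held together while the replicates did not.

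The third question was whether A78:5 over G88:9 differed from 2 pairings that share no extract with it or with each other. Both pair an asCCR line with a control line. A78:4 over G88:5 also shares no extract with it, but shares extracts with both of those pairings and was left out. By the titles, A78:3 over G88:5 has other array numbers than A78:5 over G88:9. Its median intensities were 2397 to 6335, against 676 to 2344 in A78:5 over G88:9. The array numbers of A78:4 over 95:88:22 are close to those of replicate 2 of A78:5 over G88:9 only. Pairing and set of arrays therefore cannot be told apart in these tests. Against A78:3 over G88:5 limma called 75 features, 38 of them higher in A78:5 over G88:9 (1.41%) and 37 lower (1.38%), with a smallest adjusted p of 0.0145. The 38 had a median log2 ratio of 0.23 in A78:5 over G88:9, -0.64 in A78:3 over G88:5 and -0.07 in A78:4 over 95:88:22. The 37 had medians of -0.25, 0.34 and 0.04 in the same order. By these medians A78:3 over G88:5 was thus further from 0 than A78:5 over G88:9, though not in every feature. Only 11 of the 75 had a mean beyond 0.5 in A78:5 over G88:9. Against A78:4 over 95:88:22 limma called 0 features (0% in either direction), with a smallest adjusted p of 0.238. Against the mean of both pairings limma called 11, 8 of them higher (0.298%) and 3 lower (0.112%), and each of the 11 was also among the 75. At an unadjusted limma p under 0.05 were 364 features against A78:4 over 95:88:22, 511 against A78:3 over G88:5 and 521 against the mean of both. Evenly spread p-values would yield 134.4.

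These counts were lower without the array of replicate 1 with A78:5 in Cy3. Limma then called 9 features against A78:3 over G88:5, 7 higher and 2 lower, and 0 against the mean of both, with a smallest adjusted p of 0.0508, and 0 against A78:4 over 95:88:22. The counts also depended on the spread assumed. With 1 weight per pairing they were 19 against A78:3 over G88:5 and 4 against the mean of both, and with arrays scaled to 1 spread 38 and 29. Without replicate 1 of A78:5 over G88:9 they were 425 and 454, and without replicate 2 they were 256 and 237, where the lone replicate was assumed to vary like the other pairings.

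F2018_2130 differed most among the named features. It was at 1.15 and 0.44 in A78:5 over G88:9, against -1.06 and -1.32 in A78:3 over G88:5 and -0.28 and -0.40 in A78:4 over 95:88:22. The difference from A78:3 over G88:5 was 1.99 (SE 0.22, limma adjusted p = 0.0145), with an adjusted p of 0.00499 with 1 weight per pairing. It was 1.96 without the array of replicate 1 with A78:5 in Cy3, with a limma adjusted p of 0.0465. F4588_4700 was at 0.53 and 0.52, against -0.37 and -0.20 in A78:3 over G88:5. The difference was 0.81 (SE 0.10, limma adjusted p = 0.0167), and the limma adjusted p was 0.0414 with 1 weight per pairing. It did not pass without the array of replicate 1 with A78:5 in Cy3, at 0.98 and a limma adjusted p of 0.0512. The features were chosen for their size in A78:5 over G88:9, which favours a difference.

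F520_632 was at -0.98 and -0.68 in A78:5 over G88:9, against -0.09 and -0.20 in A78:3 over G88:5 and 0.02 and -0.09 in A78:4 over 95:88:22. Its difference from A78:3 over G88:5 was -0.69 (SE 0.12, limma adjusted p = 0.0431), and the adjusted p was 0.0767 with 1 weight per pairing. F5038_5150 differed from A78:3 over G88:5 by -0.56 (SE 0.10, limma adjusted p = 0.0425), and the adjusted p was 0.0958 with 1 weight per pairing. Without the array of replicate 1 with A78:5 in Cy3 neither passed, at -0.86 for F520_632 (limma adjusted p = 0.113) and -0.67 for F5038_5150 (limma adjusted p = 0.0732). Against A78:4 over 95:88:22 the differences were 1.13 for F2018_2130, 0.55 for F4588_4700, -0.79 for F520_632 and -0.49 for F5038_5150, and none of the 4 passed, with a limma adjusted p of 0.238 in each.

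The sets chosen in A78:5 over G88:9 were last followed in the pairings that share an extract with it, as medians only. The choice fixed their sign in A78:5 over G88:9 and favours the same sign where an extract is shared. The 95 lower features had medians of -0.46 in replicate 1 and -0.39 in replicate 2 of A78:5 over G88:9. In A78:5 over 95:88:22, which shares the A78:5 extracts, they were at 0.20 in replicate 1 and -0.07 in replicate 2. In A78:3 over G88:9, which shares the G88:9 extracts, they were at 0.27 in replicate 1 and -0.46 in replicate 2. In both pairings other than A78:5 over G88:9 their median was thus below 0 in replicate 2 and above 0 in replicate 1. F520_632 had the same signs, with 0.20 and -0.06 in A78:5 over 95:88:22 and 0.65 and -0.59 in A78:3 over G88:9.

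A78:4 over G88:5, which holds neither line, was not followed. In the other pairings with neither line, the same 95 features had smaller medians. In A78:3 over G88:5 they were at 0.00 in replicate 1, with 49 of 95 below 0, and at -0.16 in replicate 2, with 75 of 95 below 0. In A78:4 over 95:88:22 they were at -0.04 in both replicates, with 61 and 67 of 95 below 0. The medians of all features in these 4 replicates were 0.00 to 0.01. The 40 higher features had medians of 0.32 and 0.38 in A78:5 over G88:9, -0.02 and 0.08 in A78:5 over 95:88:22 and -0.04 and 0.07 in A78:3 over G88:9. They were at -0.06 and -0.01 in A78:3 over G88:5 and at 0.01 and 0.00 in A78:4 over 95:88:22. Neither set had a median beyond 0.1 in both replicates of any other of these pairings in the direction it had in A78:5 over G88:9. A fit of all extract levels over 23 arrays, which combines direct and indirect paths between the lines, called 0 features and had 133 at an unadjusted limma p under 0.05. The fit left out 1 array whose scanner file was a copy of another's.

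**Figure D5:**
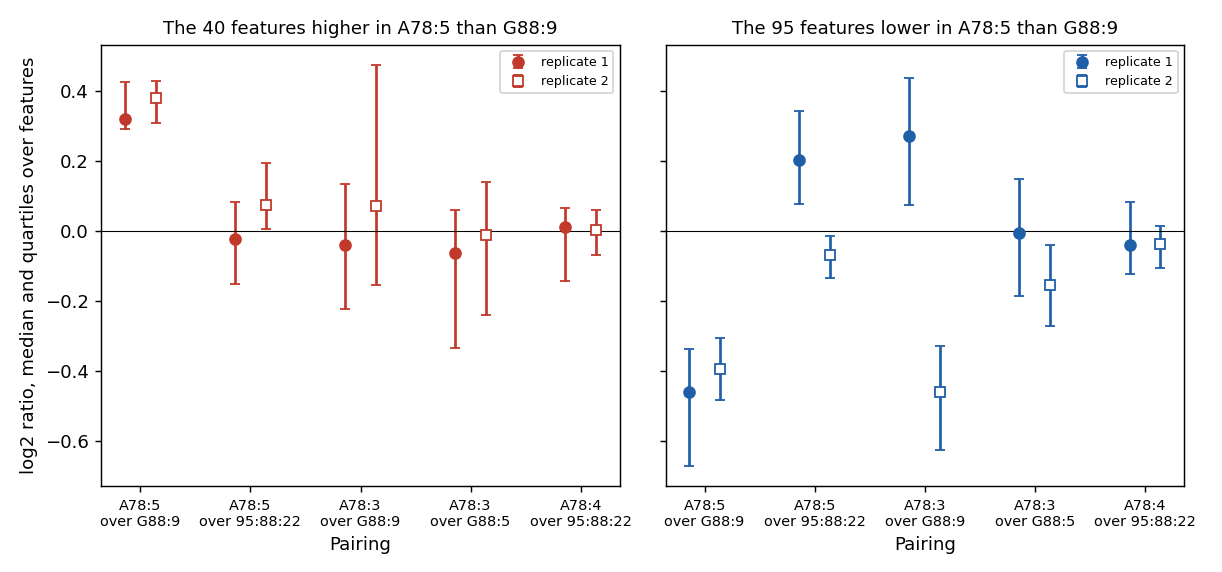
Median log2 ratio, asCCR line over control line, of the 40 higher and 95 lower features in 5 pairings, by replicate, with bars for the quartiles over features. The lower set is at -0.46 and -0.39 in A78:5 over G88:9 and at 0.27 and -0.46 in A78:3 over G88:9.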

How the data were processed

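Per the labels, the authors used the LCB Data Warehouse (1.2.10) to normalize spot intensities slide by slide with print-tip loess. The deposited series matrix held log2 ratios of Cy5 over Cy3. Recomputing print-tip loess without background subtraction from the deposited scanner intensity values gave them back within 0.000537 on the 4 arrays. This settled scale, centring and which channel was divided by which, with column medians of -0.00272 to 0.0193. The dye of each channel and the line in each dye could not be checked this way. Signs were turned to A78:5 over G88:9, then 2 duplicate spots and 2 dye orientations were averaged. The 24 spots marked as ignored on the 4 arrays were kept. No filter on low values was applied.

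The 2 replicate values were tested against 0 with limma 3.58.1 in R 4.3.3 across all features and adjusted by Benjamini-Hochberg, with calls under 0.05. Differences between pairings used 6 replicate values from 12 arrays. The procedure was tested on simulated data, but no outcome of that test is given here. No conclusion is drawn from it about the calls between pairings, whose replicates differed in spread. Precision is limited by the number of arrays. The labels call the replicates biological but do not say that they came from separate cultures, so p-values measure only the spread between these extracts. Replicate numbers were not used to pair extracts in these fits.

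Named features were 2 in each direction, called features first and otherwise the largest smaller replicate size with 1 sign on all 4 arrays. Members and lists were chosen with earlier results of these data known. Alternatives covered background correction (normexp, offset 50), loess, scaling, filters, the spread, the replicate block, dye and left-out replicates. Another array's scanner file was identical to that of a further array, and it was left out of the fit of 23 arrays.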

Additional observations from a re-analysis of the deposited data

Results flagged for a closer look

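All flags are differences, tested with limma, between A78:5 over G88:9 and pairings that share no extract with it. Pairing and set of arrays cannot be told apart in them. The count of features called was 75 against A78:3 over G88:5 and 11 against the mean of that pairing and A78:4 over 95:88:22. F2018_2130 differed by 1.99 from A78:3 over G88:5 and by 1.56 from the mean of both. F4588_4700 differed by 0.81 from A78:3 over G88:5 and by 0.68 from the mean of both. F520_632 differed by -0.69 from A78:3 over G88:5 and by -0.74 from the mean of both. F5038_5150 differed by -0.56 from A78:3 over G88:5. The named features were chosen for their size in A78:5 over G88:9, which favours such differences. Without the array of replicate 1 with A78:5 in Cy3 the counts were 9 and 0, and of the named features only F2018_2130 still passed against A78:3 over G88:5, with a limma adjusted p of 0.0465. With 1 weight per pairing the limma adjusted p against the mean of both was 0.0368 for F2018_2130, 0.0866 for F4588_4700 and 0.0895 for F520_632. No sample lay apart from the others among the 10 sets of 4 values tested, where chance marks about 1 in 20. Some of these sets were values of the named features, which were chosen for 1 sign on all arrays. That rate need not hold for them, and with 4 values an outlying array can be missed.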

How the results depend on the processing

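The named features and the correlation between replicates kept their sign under each alternative run. The surplus of lower features at an unadjusted limma p under 0.05 shrank with the shared spread and, in that fit, turned round without replicate 1. The count of 0 calls became 46 with normexp (12 higher, 34 lower), 71 with 1 loess curve per array (20 higher, 51 lower), 21 with the spread shared with 2 pairings and 321 to 457 without single replicates. Below an unadjusted limma p of 0.05 were 652 features with the shared spread, 727 to 870 without single replicates and 133 in the fit of 23 arrays, against 264. Features beyond 0.5 the same way in both replicates numbered 38 with normexp, 19 with 1 loess curve, 49 with A78:5 in Cy5 only, 9 with A78:5 in Cy3 only and 14 without the array of replicate 1 with A78:5 in Cy3, against 5. They numbered 0 at a limit of 1 and 135 at 0.25. With A78:5 in Cy3 only, r was 0.130 and the shares with the same sign were 60.1% and 58.1%, against 53.9% of all features. Of features at an unadjusted p under 0.05, 67.4% were lower, against 50.4% with A78:5 in Cy3 only, 52.8% with the shared spread, 52.6% in the fit of 23 arrays and 45.5% without replicate 1.

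Calls against the mean of the other pairings were 18 with normexp, 29 scaled, 4 weighted, 0 without the array of replicate 1 with A78:5 in Cy3 and 237 to 454 without single replicates, against 11. Against A78:3 over G88:5 they were 31, 38, 19, 9 and 256 to 425, against 75. Against A78:4 over 95:88:22 they were 1 scaled and 139 to 298 without single replicates, against 0. The cause was not tested. In the fits without a single replicate, the lone replicate took its spread from the other pairings, whose replicates lay closer together. The array weights, the fit without the least precise array and the replicate block without a dye term were chosen after seeing the data. The named features kept their sign in all 17 alternatives each, which their choice had largely fixed. Intervals and calls rest on 2 replicates.

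With the replicate block as a random effect on 4 arrays, limma called 0 features and had 385 at an unadjusted p under 0.05. The consensus correlation was -0.112. With no replicate block the counts were 0 and 346. The planned form of that block with a dye term could not be fitted on 4 arrays.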
